A study of Mus musculus with 12 samples.

Results

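Knockout (KO) and wildtype (WT) fibroblasts were compared after the same arsenite exposure, with 3 arrays of each genotype out of 12 arrays in all. The cells were mouse embryonic fibroblasts (MEFs) of embryos aged 12.5 to 14.5 days, immortalised with the SV40 large T antigen, and the strain label of every array joins B6.129P2-Ppp1r15A tm1.1.Ajf/Mmnc with C57Bl/6. KO cells were homozygous for the loss of GADD34 (gene symbol Ppp1r15a), and both genotypes received 0.1 mM sodium arsenite for 2 h before lysis. In the same 3 replicate experiments both genotypes were also left untreated, which gave the other 6 arrays. The labels do not say how many embryos or immortalised lines stand behind each genotype, so a difference between genotypes and a difference between lines cannot be told apart, and p-values measure the spread between these arrays only. The arrays were chosen by the code in the full table's column names, since 10 of 12 columns of a shorter deposited table hold another array than the one their label names. Of 20753 genes with a single symbol, the 17773 placed on an autosome are described.

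GADD34 brings protein phosphatase 1 to the translation factor eIF2 and so removes the phosphate that stress kinases put there. Arsenite activates such a kinase, the heme-regulated inhibitor, and phosphorylated eIF2 slows most protein synthesis while the transcription factor ATF4 is still made. ATF4 and its partner CHOP then switch on a set of stress genes that includes GADD34 itself. Arsenite also sets off heat shock factor, the oxidant sensor NRF2, metal-responsive genes and the MAP kinases that drive immediate early genes such as Fos and Egr1.

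Promoter windows of 4 genes are shown, because the results below come back to them: the deleted gene itself, the MAP kinase phosphatase Dusp1 and the heat shock gene Hspa1b, whose difference between genotypes changed with arsenite, and the ATF4 target Trib3. Each runs from 250 bases before the start of transcription to 30 after it, from RefSeq on GRCm38.p6, and capitals mark the motif searched on both strands.
Ppp1r15a, chr7:45526239-45526518, minus strand: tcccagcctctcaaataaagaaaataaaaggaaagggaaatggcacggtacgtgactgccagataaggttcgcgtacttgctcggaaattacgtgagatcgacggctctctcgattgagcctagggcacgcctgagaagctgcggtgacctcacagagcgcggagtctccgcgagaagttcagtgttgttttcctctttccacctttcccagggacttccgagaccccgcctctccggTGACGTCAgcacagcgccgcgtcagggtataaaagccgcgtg
Dusp1, chr17:26508443-26508722, minus strand: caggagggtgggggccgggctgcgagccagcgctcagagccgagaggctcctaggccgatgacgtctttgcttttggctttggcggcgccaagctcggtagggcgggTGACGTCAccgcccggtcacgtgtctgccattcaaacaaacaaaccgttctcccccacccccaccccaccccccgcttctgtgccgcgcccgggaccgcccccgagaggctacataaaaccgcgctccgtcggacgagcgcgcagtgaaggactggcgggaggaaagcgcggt
Trib3, chr2:152344031-152344310, minus strand: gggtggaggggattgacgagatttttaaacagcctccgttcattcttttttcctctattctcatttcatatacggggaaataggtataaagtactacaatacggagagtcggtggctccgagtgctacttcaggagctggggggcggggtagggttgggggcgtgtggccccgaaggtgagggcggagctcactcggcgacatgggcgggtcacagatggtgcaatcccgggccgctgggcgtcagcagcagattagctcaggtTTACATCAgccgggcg
Hspa1b, chr17:34959209-34959488, minus strand: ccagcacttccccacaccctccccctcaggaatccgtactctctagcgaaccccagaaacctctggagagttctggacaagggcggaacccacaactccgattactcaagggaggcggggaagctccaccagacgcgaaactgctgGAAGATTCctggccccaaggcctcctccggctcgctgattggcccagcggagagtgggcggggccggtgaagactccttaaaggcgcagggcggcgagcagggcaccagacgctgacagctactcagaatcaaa
In Ppp1r15a and Dusp1 the capitals mark the cAMP response element TGACGTCA, which 1.78% of 31396 autosomal promoter windows of this length hold. Trib3 holds the core TGATGNAA of the element that CHOP and ATF4 bind, on the opposite strand and 15 bases into the transcript, as do 3.67% of windows somewhere in their length. Hspa1b holds GAANNTTC, a pair of heat shock factor half-sites, found in 7.41% of windows. Each of the 4 windows held 1 match of its marked motif and 0 of the others, and a match describes the letters only.

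Ppp1r15a was far lower in KO. Its log2 signal under arsenite was 12.24, 12.25 and 11.60 in WT and 6.27, 6.71 and 5.88 in KO, and the groups lay far apart. The difference was -5.74 ± 0.22 log2 (difference ± SE of the fit, n = 3 arrays per group; limma with Benjamini-Hochberg adjustment, adjusted p = 2.34e-08). On the untreated arrays it was 8.45, 8.57 and 8.88 in WT and 6.42, 6.34 and 6.20 in KO, so arsenite arrays of WT stood above untreated ones while both sets of KO arrays lay within the same narrow range. Whether its probe set falls inside the deleted stretch was not looked up here, so the low KO signal checks the labels only as far as that. Its relative Ppp1r15b, the constitutive partner of protein phosphatase 1 known as CReP, had 10.91, 11.08 and 11.10 in WT and 11.29, 11.34 and 11.25 in KO. All 3 KO arrays were above the WT arrays, but the difference of 0.26 ± 0.10 did not pass (adjusted p = 0.0886), and it did pass with the replicate experiment as a block (adjusted p = 0.0374).

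Among all autosomal genes, 4045 passed an adjusted p of 0.05 under arsenite, which is 22.8% of those tested. Of these, 2068 were higher in KO (11.6%) and 1977 lower (11.1%). Measured differences of at least 2-fold numbered 571 higher and 621 lower, and of 16-fold or more 32 and 24. Of the 4045 genes, 396 had at least 1 group mean under 5.35 log2, taken below as background. In 127 of these both means lay under it. Measured folds of such genes are limited by background, and the counts include them. All 3 KO arrays lay above all 3 WT arrays for 3602 genes (20.3%) and below them for 2877 (16.2%). Centring each array on its median moved the split to 1662 higher and 2252 lower, or 42.5% higher in place of 51.1%. A share of this size is the yardstick for every gene list below, for counts without the block. With the replicate experiment as a block, 3030 of the 17773 autosomal genes were higher and 2791 lower. List counts with the block are to be read against these larger numbers. The Actb 3' to 5' difference, a sign of RNA quality, lay between 0.22 and 0.40 log2 on the 12 arrays, and KO arrays were less alike (median correlation with their own group 0.987 to 0.992) than WT arrays (about 0.995).

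The KO arrays did not stand equally far from WT. Over the 360 genes that passed the test untreated with at least a 4-fold difference, the median distance from the WT mean under arsenite was 2.68, 2.47 and 2.67 log2 for KO replicates 1, 2 and 3. Replicate 2 was the nearest to WT for 179 of these genes (49.7%). It is the low or high array in many values below.

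The largest differences were of genes near or under detection in one genotype, and several encode regulators of embryonic patterning. Values under 5.35 log2, the 40th percentile of all array values, are taken here as background, and a fold against a group mean below it is a lower bound. Igfbp2, which binds insulin-like growth factors, read 4.40, 4.68 and 4.55 in WT and 14.14, 12.49 and 13.28 in KO, at least 249-fold higher (measured difference 8.76 ± 0.41 log2, adjusted p = 1.47e-07). Zic1, a zinc finger factor of neural and dorsal mesoderm patterning, read 3.50, 3.07 and 3.49 in WT and 12.05, 11.57 and 12.06 in KO, at least 93.5-fold higher (adjusted p = 1.42e-10). WT arrays sat at background for both, and no KO array came near them. Sim2, a bHLH-PAS factor, gave 3.65, 3.15 and 3.48 in WT and 10.47, 10.18 and 10.25 in KO, at least 31-fold higher. Rian, a noncoding RNA of the imprinted Dlk1-Meg3 domain, gave 5.23, 4.63 and 4.69 in WT and 12.94, 12.20 and 12.36 in KO, at least 142-fold higher. The chemokine-scavenging receptor Ackr3 was at least 63.2-fold higher and the aminopeptidase Enpep at least 20-fold, with KO replicate 2 of Enpep at 7.66 against 10.94 and 10.40.

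With both groups above background, Ptgis, the prostacyclin synthase, showed the largest excess in KO. Its signal was 6.42, 5.80 and 5.89 in WT and 12.80, 11.94 and 11.97 in KO, a difference of 6.20 ± 0.31 log2 (adjusted p = 2.05e-07). Mest, an imprinted gene read from the paternal allele, gave 5.23, 5.87 and 5.40 in WT and 12.72, 9.90 and 11.52 in KO, with KO replicate 2 the lowest of its group. Meg3, the maternally read noncoding RNA of the Dlk1-Meg3 domain, gave 6.52, 6.73 and 6.33 in WT and 12.04, 11.15 and 11.72 in KO. Groups that did not overlap were a condition for being among the largest differences named here. Gas1 (a hedgehog co-receptor, 5.06 log2), Npnt (a basement membrane protein, 5.02) and Adamtsl3 (a matrix protein, 5.01) were also among the 8 largest.

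Lower in KO, Cd34 led the genes with both means above background. This surface sialomucin of progenitors and fibroblasts read 12.10, 12.48 and 12.52 in WT and 5.45, 5.01 and 6.18 in KO, a difference of -6.82 ± 0.42 log2 (adjusted p = 9.16e-07). Pax1, a paired-box factor of the sclerotome, read 10.89, 10.07 and 10.54 in WT and 5.32, 5.47 and 5.66 in KO. Lgals3, which encodes galectin-3, read 13.23, 13.31 and 13.45 in WT and 7.57, 9.62 and 9.33 in KO, with KO replicate 1 the farthest from WT. The glutamate transporter Slc1a6 (-4.80 log2), the transmembrane glycoprotein gene Gpnmb (-4.43), the cation exchanger Slc24a3 (-4.39) and 3110039M20Rik (-4.92) were lower too. Of genes at background in KO, Lipo3 read 10.54, 10.40 and 10.25 in WT and 3.54, 3.43 and 3.34 in KO, at least 33.1-fold lower. P2ry14, a receptor for UDP-sugars, was also at least 33.1-fold lower, and the brain-type fatty acid binding protein gene Fabp7 at least 39.6-fold. Smpdl3a, Slc6a15 and Atp8b1 were at least 22.4-fold, 12.7-fold and 7.93-fold lower. Slc1a6, Fabp7, Smpdl3a and Slc6a15 lie on chromosome 10, where low genes were frequent, as given further on.

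**Figure D1:**
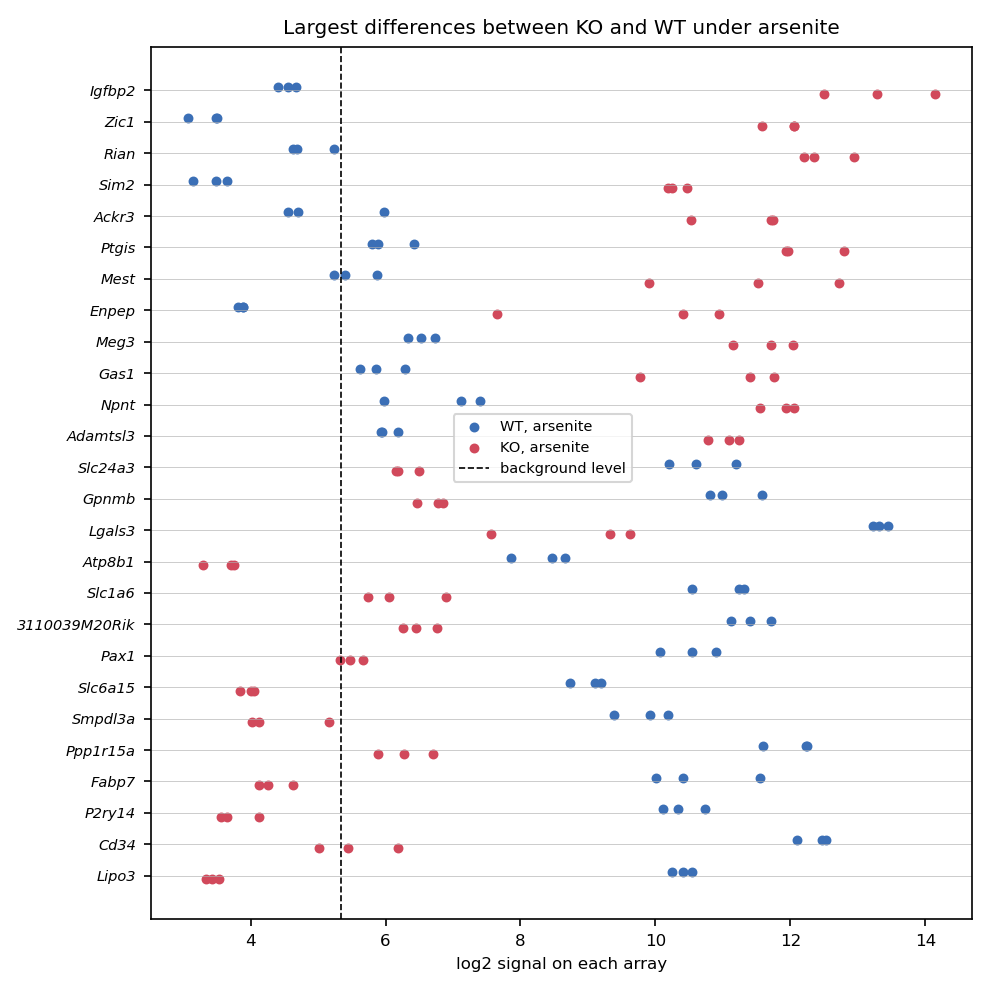
Log2 signal of 26 genes with the largest differences on each of the 3 WT (blue) and 3 KO (red) arrays under arsenite, ordered by difference, with the background level of 5.35 dashed. Each point is 1 array. Genes were picked from those whose genotypes did not overlap, so the lack of overlap is not a result.

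Most of this was already there without arsenite. On the 6 untreated arrays 3879 genes passed (21.8%), 1970 higher and 1909 lower (11.1% and 10.7%). The differences untreated and under arsenite come from separate arrays. Their tests do not, since 1 fit over the arrays of both treatments gave each gene 1 error estimate. The lists of passing genes are therefore not independent. Higher in both lists were 1504 genes, 72.7% of the arsenite list and 76.3% of the untreated one. Lower in both were 1431, 72.4% and 75% of the lists. Fits of each treatment's 6 arrays alone gave 3276 genes under arsenite and 3574 untreated, and the overlap of those lists is not given here. Of the 4045 genes that passed under arsenite, 3939 (97.4%) had the same sign untreated. Across autosomal genes, which are not independent replicates and share cell lines and array design, the differences correlated with Pearson's r = 0.928 and Spearman's rho = 0.779. Cd34 differed by -6.93 log2 untreated and -6.82 under arsenite. Where 1 genotype lay at background only bounds can be set, and Igfbp2 was higher in KO by at least 8.07 log2 untreated and 7.96 under arsenite, Zic1 was higher by at least 7.02 and 6.55, and Lipo3 was lower by at least 5.14 and 5.05. Opposite signs, both past the threshold, were found for 3 genes, named here after their values were seen. Atf3, a stress-induced bZIP factor, was lower in KO untreated (-0.58 log2, adjusted p = 0.00711) and higher under arsenite (13.82, 13.66 and 13.43 in WT and 14.39, 14.22 and 14.04 in KO, a difference of 0.58 ± 0.13, adjusted p = 0.00674). Gtf2a1, a general transcription factor subunit, and Tnks2, a tankyrase, were higher untreated (0.45 and 0.26) and lower under arsenite (-0.32 and -0.30).

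**Figure D2:**
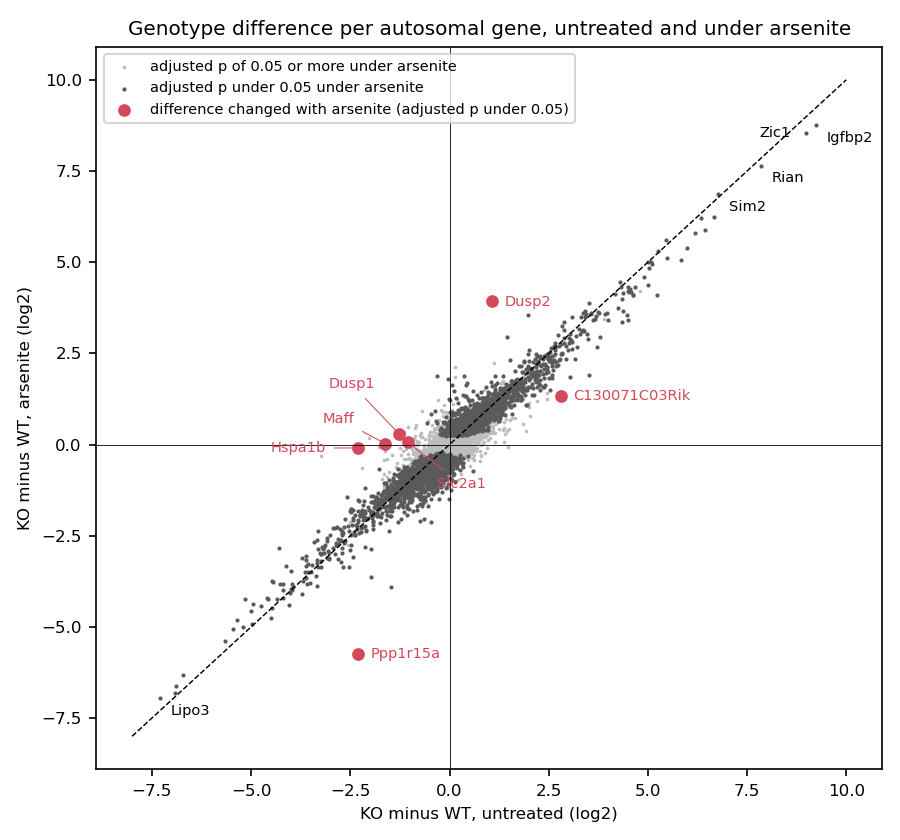
Difference KO minus WT in log2 for each of 17773 autosomal genes, untreated (horizontal) and under arsenite (vertical), with the line of equal differences dashed. Dark points passed the test under arsenite. The 7 red genes are those whose difference itself changed with arsenite. Igfbp2, Zic1, Rian, Sim2 and Lipo3 lie near the line.

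The difference between the 2 contrasts was tested for each gene, and 7 genes passed (0.0394%): in 5 KO minus WT was larger under arsenite (0.0281%) and in 2 smaller (0.0113%), and 1052 genes (5.919%) had an unadjusted p under 0.05. With the replicate experiment as a block, 12 passed. Leaving out 1 array gave 1 to 5 genes for 11 of the arrays and 61 without KO arsenite replicate 3, so the count rests on single arrays. In some of these fits 0 genes passed as larger, as given further on. The 7 genes were picked for naming after their values were seen. Beside Ppp1r15a, whose difference became larger in size by 3.43 log2, the MAP kinase phosphatase Dusp2 stood out. Dusp2 read 6.11, 6.20 and 6.19 in WT and 7.22, 7.82 and 6.66 in KO untreated and 8.70, 8.77 and 8.72 in WT and 13.01, 12.66 and 12.30 in KO under arsenite. The genotypes did not overlap in either condition, and the difference was 1.06 log2 untreated and 3.92 ± 0.24 under arsenite (adjusted p = 9.53e-07), a change of 2.86 ± 0.34 (adjusted p = 0.0254).

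Dusp1, Hspa1b, Maff and Slc2a1 shared another pattern: lower in KO untreated, with a difference under arsenite that did not pass. Dusp1, which switches off p38, JNK and ERK, read 12.51, 12.26 and 12.33 in WT and 10.86, 11.28 and 11.16 in KO untreated and 13.51, 13.33 and 13.78 in WT and 13.81, 13.91 and 13.75 in KO under arsenite, where the arrays of the genotypes overlapped. The stress-inducible HSP70 gene Hspa1b read 12.97, 12.66 and 13.06 in WT and 10.44, 10.66 and 10.69 in KO untreated and 14.56, 14.63 and 14.10 in WT and 14.50, 14.54 and 13.98 in KO under arsenite. Its difference was -2.30 log2 untreated (adjusted p = 5.58e-06) and -0.09 ± 0.18 under arsenite (adjusted p = 0.793). Hspa1b has a near-identical neighbour, Hspa1a, and probes may read both. Maff, a small Maf factor, differed by -1.62 untreated and 0.02 ± 0.15 under arsenite, and the glucose transporter Slc2a1 by -1.05 and 0.06 ± 0.11. A p that misses the threshold does not show equal levels. The unnamed transcript C130071C03Rik went the other way. It was at least 2.89-fold higher in KO untreated, with WT at background, and under arsenite both group means lay under background (3.83 in WT and 5.17 in KO), so no fold is given there.

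**Figure D3:**
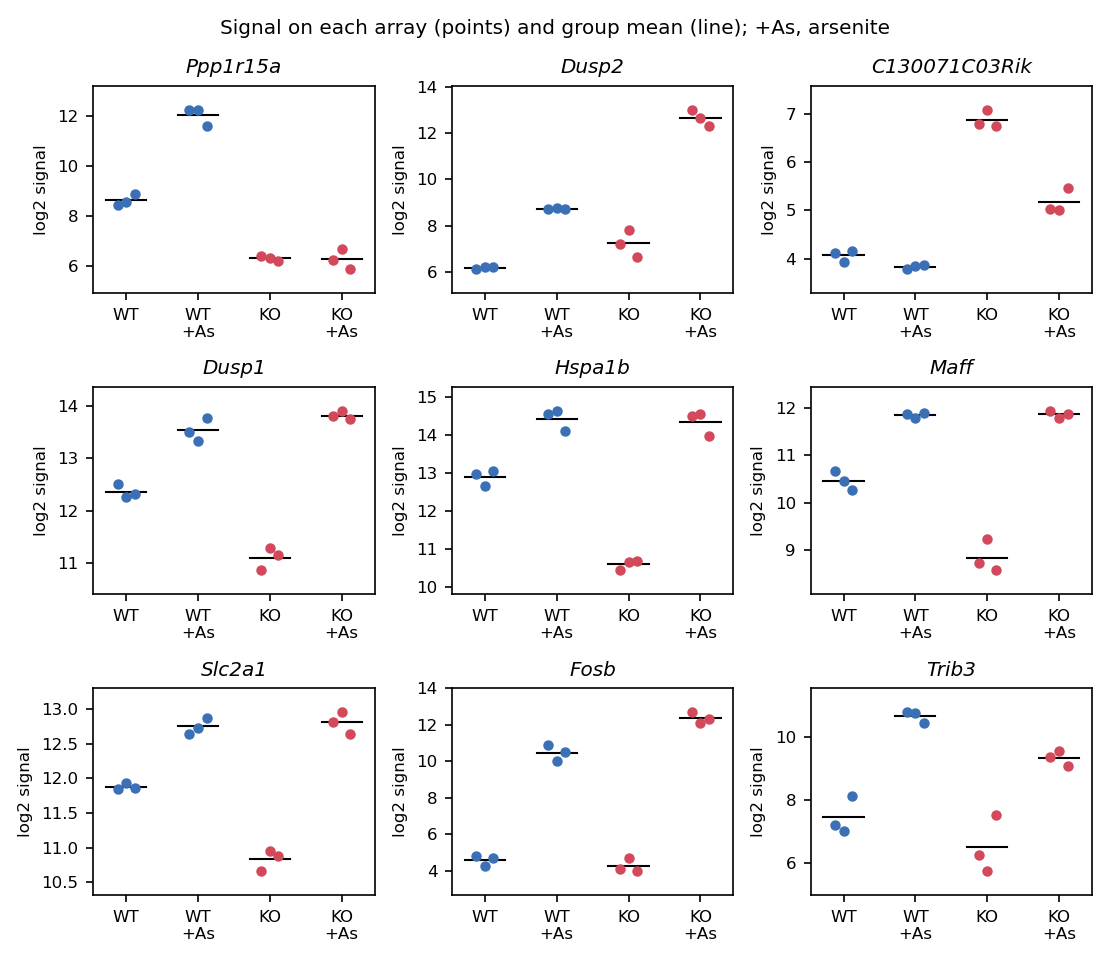
Log2 signal on each of the 12 arrays (points) with the group mean (line) for the 7 genes whose genotype difference changed with arsenite and for Fosb and Trib3. Axes do not start at 0 and differ between panels. Hspa1b, Dusp1, Maff and Slc2a1 are low in untreated KO cells, and under arsenite their KO arrays lie among or beside the WT arrays.

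Immediate early genes, the first wave of MAP kinase driven genes, were more often higher in arsenite-treated KO cells than autosomal genes in general. The list holds transcription factors together with other immediate early genes such as Arc. Of 31 measured, 10 were higher and 0 lower by limma (32.3% against 11.6%; 1 was lower at an unadjusted p under 0.05), with a median difference of 0.58 log2 against 0.04 over all autosomal genes. Without WT arsenite replicate 2 the count was 6, and with the replicate block 14 higher and 1 lower; 1 was lower too without KO arsenite replicate 1 or KO untreated replicate 1 or 2. Untreated, 1 was higher and 5 lower. Fosb, an AP-1 subunit, read 10.90, 10.00 and 10.53 in WT and 12.71, 12.08 and 12.32 in KO, a difference of 1.89 ± 0.26 log2 (adjusted p = 0.000356). Arc, a synaptic immediate early gene, read 9.93, 10.19 and 10.56 in WT and 12.38, 11.92 and 12.03 in KO, a difference of 1.88 ± 0.16 (adjusted p = 9.66e-06). KO arrays were above every WT array for both. Egr3, a zinc finger factor, read 11.31, 10.99 and 12.27 in WT and 13.61, 13.17 and 13.48 in KO, and its call (adjusted p = 0.0373) was lost without any 1 of the 3 KO arsenite arrays, WT arsenite replicates 1 or 2, or WT untreated replicate 2 (adjusted p up to 0.132). The others were Junb, Egr4, Nr4a2, Ier5, Atf3, Klf6 and Zfp36. Nr4a3, an orphan nuclear receptor, read 9.12, 8.28 and 7.91 in WT and 10.81, 8.91 and 9.34 in KO and did not pass (adjusted p = 0.0783; with the block adjusted p = 0.0276). Untreated, Fosb lay under background in both genotypes (means of 4.58 in WT and 4.27 in KO), so the size of its change with arsenite is not given, and the test of that change did not pass (adjusted p = 0.106). For Arc the change was 1.53 ± 0.22 (adjusted p = 0.0582).

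The phosphatases and feedback inhibitors that follow those kinases were mixed, with 4 of 18 higher and 2 lower, and 7 and 3 with the block. The shares without the block were 22.2% and 11.1%, against 11.6% and 11.1% of all autosomal genes. Without KO arsenite replicates 1 or 2 or WT arsenite replicate 2, 1 was lower. Besides Dusp2, the receptor feedback gene Spry2 was higher (8.88, 9.03 and 9.16 in WT and 10.19, 10.43 and 10.08 in KO; 1.21 ± 0.26 log2, adjusted p = 0.00558). The ERK phosphatase Dusp4 was lower (9.70, 10.44 and 10.38 in WT and 8.34, 9.13 and 8.41 in KO; -1.55 ± 0.27, adjusted p = 0.00169). The phosphatase gene Dusp8, at 0.51, passed only with the block (adjusted p = 0.0761 without it and 0.0443 with it).

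Targets of ATF4 and CHOP were lower in KO more often than genes at large. Under arsenite 8 of 20 were lower and 2 higher (40% lower against 11.1%), with a median of -0.42 log2, and untreated 8 were lower and 1 higher. Leaving out KO arsenite replicate 3 or WT arsenite replicate 3 left 4 lower, and leaving out WT arsenite replicate 1 or 2 left 5; 1 was higher without WT arsenite replicate 3. Ddit4, an inhibitor of mTORC1, read 12.32, 12.52 and 13.01 in WT and 10.60, 11.18 and 11.10 in KO, a difference of -1.66 ± 0.25 (adjusted p = 0.000698). Trib3, a pseudokinase whose promoter window is printed above, read 10.81, 10.76 and 10.46 in WT and 9.39, 9.58 and 9.09 in KO, a difference of -1.33 ± 0.40 (adjusted p = 0.0333). That call was lost without KO arsenite replicate 1 or 3 or any 1 WT arsenite array (adjusted p up to 0.101). Vldlr, a lipoprotein receptor, gave 8.56, 8.19 and 9.04 in WT and 7.58, 7.37 and 7.13 in KO, a difference of -1.24 ± 0.26. In all 3 genes every KO array lay below every WT array. Ddit3, which encodes CHOP itself, was named after its values were seen and differed by -0.85 log2 (adjusted p = 0.000822) and by -1.33 untreated. The stress cytokine Gdf15, at -0.84, did not pass (adjusted p = 0.116) but did with the block (adjusted p = 0.0257). The 2 higher members were Atf3 and Cth, a cysteine-making enzyme. Ddit3 and Ddit4 lie on chromosome 10.

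In the eIF2 cycle, 3 of 22 genes were higher and 3 lower (13.6% each), near the 11.6% and 11.1% of all autosomal genes. With the block 5 were higher and 6 lower, and without WT arsenite replicate 1 or 3, 1 was higher. Apart from Ppp1r15a, the double-stranded RNA kinase gene Eif2ak2 was lower (7.98, 7.89 and 7.86 in WT and 7.04, 7.28 and 7.29 in KO; -0.71 ± 0.11 log2, adjusted p = 0.000649). Eif2a, an alternative initiation factor that is not the phosphorylated subunit, was higher (9.68, 9.92 and 9.77 in WT and 10.38, 10.44 and 10.48 in KO; 0.64 ± 0.09, adjusted p = 0.000291). Eif2b5 and Impact were higher and the phosphatase subunit Ppp1cc lower. The kinase inhibitor Dnajc3, at 0.46, did not pass (adjusted p = 0.0743) but did with the block (adjusted p = 0.0464).

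Heat shock chaperones split 5 higher and 3 lower of 29 (17.2% and 10.3%, beside 11.6% and 11.1% of all autosomal genes). Untreated 2 were higher and 7 lower. The higher count was 8 without KO arsenite replicate 3, and the lower count 5 with the block. Cryab, a small heat shock protein, was higher (11.97, 10.97 and 10.95 in WT and 13.61, 13.87 and 13.49 in KO; 2.35 ± 0.29 log2, adjusted p = 0.000151), but not on probe sets free of cross-hybridisation (difference 0.08). Hspb8, another small heat shock protein, was lower (9.86, 10.15 and 9.73 in WT and 8.65, 8.45 and 7.33 in KO; -1.77 ± 0.34), as was the factor Hsf2 (-1.35). Hspa4l, at -1.27, did not pass (adjusted p = 0.149; with the block 0.0156), with KO replicate 2 at 10.55 among the WT values. Of 15 metal-response genes 3 were higher and 1 lower (20% and 6.67%). The counts were 3 and 3 with the block, and 2 were lower without KO arsenite replicate 2. The 3 higher were zinc transporters: Slc39a10 (0.95 ± 0.11, adjusted p = 8.08e-05), Slc39a8 (0.90) and Slc30a7 (0.48). The call for Slc39a8 was lost without KO arsenite replicates 1 or 3 or WT arsenite replicates 2 or 3 (adjusted p up to 0.116), and those for Slc39a8 and Slc30a7 in the mean over probe sets (0.44 and 0.15).

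Oxidant-defence genes under NRF2 showed 3 of 34 higher and 5 lower (8.82% and 14.7%), near the share of all genes without the block. Without KO arsenite replicate 2, 9 were lower, and without KO arsenite replicate 3 or WT arsenite replicates 1 or 2, 1 was higher. With the block 5 were higher and 11 lower, and over all 17773 autosomal genes 3030 and 2791 were. Gpx7, a glutathione peroxidase relative of the endoplasmic reticulum, read 9.58, 9.27 and 9.23 in WT and 7.54, 5.61 and 6.69 in KO, a difference of -2.75 ± 0.51 log2 (adjusted p = 0.00243). Nqo1, a quinone reductase and standard NRF2 target, read 8.42, 8.14 and 8.63 in WT and 6.18, 7.01 and 7.07 in KO, a difference of -1.64 ± 0.26 (adjusted p = 0.000873). Among genes that carry, methylate or conjugate arsenic 0 of 18 were higher by limma (3 at an unadjusted p under 0.05) and 5 lower (27.8%), and with the block 3 and 6. The lower count was 3 without WT arsenite replicate 1 or 3, and 3 were higher without KO arsenite replicate 2 and 1 without KO arsenite or untreated replicate 1. The water channel Aqp5 read 7.66, 8.09 and 8.38 in WT and 7.23, 6.74 and 7.15 in KO, a call lost without WT arsenite replicate 3 (adjusted p = 0.0589). The glutathione transferase Gstp1 differed by -0.40 ± 0.08, and the salvage enzyme Mtap by -0.41 ± 0.08, which did not pass on probe sets free of cross-hybridisation (-0.51). Gstt1, at 1.30, did not pass (adjusted p = 0.105) but did with the block (adjusted p = 0.00255).

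Of 36 NF-kB, cytokine and chemokine genes 4 were higher and 8 lower (11.1% and 22.2%), and 8 and 9 with the block. Over all autosomal genes 11.6% were higher and 11.1% lower without the block. The higher count was 1 without KO arsenite replicate 2 and 2 without KO arsenite replicate 1, any 1 WT arsenite array or WT untreated replicate 2, and the lower count 5 without WT arsenite replicate 1. Il6, an inflammatory cytokine, read 4.67, 4.12 and 4.25 in WT and 7.62, 8.10 and 7.95 in KO, at least 5.82-fold higher (adjusted p = 1.38e-06). Ccl2, which draws monocytes, read 9.67, 9.40 and 9.33 in WT and 8.04, 6.80 and 6.67 in KO, a difference of -2.30 ± 0.47 log2 (adjusted p = 0.00472), and the epithelial-type cytokine Tslp was lower by a difference of -2.27. Il11 spread from 6.51 to 10.84 in KO and did not pass (adjusted p = 0.0886; with the block 0.0151). Interferon-stimulated genes gave 5 higher and 5 lower of 34 (14.7% each), 9 higher with the block and 8 without KO arsenite replicate 2. Of 24 p53 targets 1 was higher and 3 lower (4.17% and 12.5%), and 2 and 5 with the block. The higher call was lost without WT arsenite replicate 2 or 3, and 2 were higher without KO arsenite replicate 1 or WT untreated replicate 3. The lower were led by the nucleotide reductase subunit Rrm2b (-0.99 ± 0.13, adjusted p = 0.000193) and the stress sensor Sesn2 (-0.79). Of 15 BCL2 family genes 3 were higher, Bmf, Bcl2l12 and Bcl2l13, and 1 lower (20% and 6.67%), and 4 and 2 with the block. The higher count was 1 without KO arsenite replicate 1 or 3 or WT arsenite replicate 1, and 0 without WT arsenite replicate 2. Without KO arsenite replicate 3, 2 were lower. The lower gene was the survival gene Bcl2 (-0.76 ± 0.13, adjusted p = 0.00155). Its probe sets ran from -0.76 to 0.33, and its call was lost in the mean over them. Of 30 chaperone and degradation genes of the endoplasmic reticulum 3 were higher and 3 lower, close to the background (5 and 6 with the block), with the disulfide isomerase Pdia4 at 1.00 ± 0.12.

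The cells also differed in matrix. Of 48 collagen and matrix genes 12 were higher and 9 lower (25% and 18.8%, against 11.6% and 11.1% of all autosomal genes). Untreated the counts were nearly the same (13 and 9). Col1a2, a chain of type I collagen, read 10.43, 9.90 and 10.61 in WT and 14.86, 14.35 and 14.70 in KO, a difference of 4.32 ± 0.22 log2 (adjusted p = 2.09e-07). Loxl2, a collagen crosslinking oxidase, read 9.67, 9.69 and 9.82 in WT and 7.12, 5.84 and 7.18 in KO, a difference of -3.01 ± 0.41 (adjusted p = 0.000327). Postn, a matricellular protein, gave 11.64, 9.18 and 8.77 in WT and 8.30, 5.90 and 5.92 in KO, and the nearest arrays of the groups were WT replicate 3 and KO replicate 1. The call for Postn was lost without KO arsenite replicates 2 or 3 or WT arsenite replicates 1 or 2 (adjusted p up to 0.138). Among 28 proteases and inhibitors 5 were higher and 2 lower (17.9% and 7.14%), and 9 and 3 with the block. In 8 of the fits that leave out 1 array 1 was lower. These left out any 1 untreated KO array, KO arsenite replicate 1 or 3, WT arsenite replicate 1 or 2, or WT untreated replicate 1. Gelatinase Mmp2 differed by 2.37 ± 0.28 and the plasminogen activator Plau by 1.88 ± 0.37. Of 22 contractile genes and YAP targets 2 were higher and 4 lower (9.09% and 18.2%), and with the block 3 and 8. The higher count was 1 without KO arsenite replicate 2 or 3 or WT arsenite replicate 1 or 2. The smooth muscle actin Actg2 read 12.61, 12.26 and 12.07 in WT and 9.74, 9.05 and 8.84 in KO, a difference of -3.11 ± 0.39, and calponin Cnn1 differed by -2.83 ± 0.46.

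Genes that set position in the embryo differed in both directions. Of 35 Hox genes 8 were higher and 10 lower (22.9% and 28.6%, against 11.6% and 11.1% of all autosomal genes), and untreated 7 and 8. The higher count fell to 4 without KO arsenite replicate 3 or WT arsenite replicate 2 and to 5 without either replicate 1, and the lower count was 6 without WT arsenite replicate 3. Hoxd8 read 9.03, 8.89 and 9.13 in WT and 4.69, 4.95 and 4.75 in KO, at least 12.7-fold lower (adjusted p = 1.7e-09). Hoxb6 read 10.01, 9.60 and 10.35 in WT and 6.10, 6.29 and 6.33 in KO, a difference of -3.75 ± 0.19 log2 (adjusted p = 2.25e-07), and Hoxb5 was at least 8.33-fold lower, whereas their neighbour Hoxb2 at -0.38 did not pass (adjusted p = 0.216; with the block 0.049). Among 64 other developmental transcription factors 15 were higher and 10 lower (23.4% and 15.6%), Zic1 and Sim2 among the higher and Pax1 among the lower.

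Of 30 imprinted genes 11 were higher in KO and 3 lower (36.7% and 10%, against 11.6% and 11.1% of all autosomal genes), and 13 and 4 with the block. Untreated the counts without the block were the same. Rian, Meg3 and Mest are given above. Dlk1, the paternally read gene of the Dlk1-Meg3 domain, differed by 3.57 log2 and Mirg, a microRNA host of that domain, by 3.48, both named after their values were seen. Cdkn1c, a maternally read inhibitor of the cell cycle, was lower (9.19, 9.34 and 9.40 in WT and 7.53, 6.64 and 7.08 in KO; -2.23 ± 0.20, adjusted p = 1.49e-05). Igf2 spread from 7.06 to 10.37 in KO and did not pass (adjusted p = 0.142; with the block 0.0444).

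Cell cycle and replication genes were lower more often than genes at large, 11 of 41 (26.8%) with 1 higher, against 7 and 2 untreated, and 6 lower without WT arsenite replicate 1. With the block 2 were higher, as without WT arsenite replicate 2. The list holds inhibitors as well as drivers, and the 3 largest decreases were of inhibitors. Cdkn2b, which encodes p15, read 11.02, 10.41 and 11.21 in WT and 8.11, 6.96 and 8.12 in KO, a difference of -3.15 ± 0.49 log2 (adjusted p = 0.000821). Cdkn2a, which encodes p16 and p19Arf, read 13.56, 13.52 and 13.73 in WT and 11.33, 9.39 and 10.73 in KO, a difference of -3.12 ± 0.47 (adjusted p = 0.000619). Cdkn1c was given with the imprinted genes. Both Cdkn2 genes lie on chromosome 4. Of 28 ribosomal protein genes 5 were higher in KO (17.9%) and 0 lower by limma (1 at an unadjusted p under 0.05), 8 and 1 with the block, and 3 higher without KO arsenite replicate 2 or 3 or WT arsenite replicate 1 (1 lower without KO arsenite replicate 3), by small amounts such as 0.54 ± 0.07 for Rpl7.

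Signalling genes of growth and patterning held members in both directions. Of 42 growth factors and receptors 4 were higher and 7 lower (9.52% and 16.7%), and 7 and 10 with the block. Igfbp4 read 6.95, 6.25 and 6.79 in WT and 12.26, 11.52 and 11.06 in KO, a difference of 4.95 ± 0.35 log2 (adjusted p = 2.49e-06), and Kitl, the ligand of the receptor Kit, read 12.52, 12.21 and 12.25 in WT and 7.54, 8.66 and 8.47 in KO, a difference of -4.11 ± 0.27 (adjusted p = 1.51e-06). In the TGF-beta and BMP list 6 of 34 were higher and 6 lower (17.6% each), with Tgfb3 at 3.35 ± 0.55 and the BMP regulator Bmper at -3.13 ± 0.64. Of 40 Wnt pathway genes 8 were higher and 6 lower (20% and 15%), and 18 and 6 with the block. Without WT arsenite replicate 2, 4 were higher, and without KO arsenite replicate 3, 3 were lower. Wnt10a read 7.18, 7.06 and 6.48 in WT and 11.54, 11.52 and 11.01 in KO, a difference of 4.45 ± 0.21 (adjusted p = 1.36e-07), and Wnt5a read 9.87, 10.00 and 10.31 in WT and 7.35, 6.64 and 7.49 in KO, a difference of -2.90 ± 0.23 (adjusted p = 6.73e-06). Axon guidance molecules gave 10 higher and 8 lower of 41 (24.4% and 19.5%), 6 higher without WT arsenite replicate 2 and 5 lower without KO arsenite replicate 1, with the repellents Sema3e at least 8.65-fold lower and Sema3a at -2.32 ± 0.33, and the receptor Epha4 at 2.11 ± 0.23. Integrins and cadherins gave 5 higher and 4 lower of 37 (13.5% and 10.8%), near the 11.6% and 11.1% of all autosomal genes. The counts were 8 and 7 with the block, and 2 were lower without KO arsenite replicate 1. Cdh10 was at least 5.8-fold higher.

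Metabolic lists held members in both directions, and not every list stood above the shares of all autosomal genes (11.6% higher and 11.1% lower). Glucose and hypoxia genes were lower in 8 of 33 (24.2%) and higher in 2, among the latter hexokinase Hk2 (9.08, 9.76 and 9.76 in WT and 10.77, 11.53 and 11.04 in KO; 1.58 ± 0.23 log2, adjusted p = 0.000433). The higher count was 1 without KO arsenite replicate 1 or WT arsenite replicate 2. The vasodilator peptide gene Adm was lower (-1.46 ± 0.31), and Vegfa, at -0.76, did not pass (adjusted p = 0.218; with the block 0.029). Amino acid supply and tRNA charging gave 6 higher and 7 lower of 33, led by the glutamate transporter Slc1a3 (1.68 ± 0.23, adjusted p = 0.000299) and the glycine transporter Slc6a9 (-1.05 ± 0.21, adjusted p = 0.00386). Without 1 of the arsenite arrays these counts went as low as 2 and 2. Of 26 cholesterol genes 2 were higher and 1 lower (7.69% and 3.85%, under the shares of all genes), and 10 and 2 with the block. The higher count was 1 without KO arsenite replicate 1 or 3 or WT arsenite replicate 1 or 2, and the lower call was lost without KO arsenite replicate 2. The sterol exporter Abca1 was at least 4.3-fold higher. Ubiquitin and autophagy genes gave 1 higher and 3 lower of 24 (4.17% and 12.5%), and 2 and 3 with the block. Among the lower was Atg5 (-0.71 ± 0.09, adjusted p = 0.000228), which lies on chromosome 10. The higher call was lost without KO arsenite replicate 3 or any 1 WT arsenite array, and 2 were higher without KO untreated replicate 1 or 2.

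**Figure D4:**
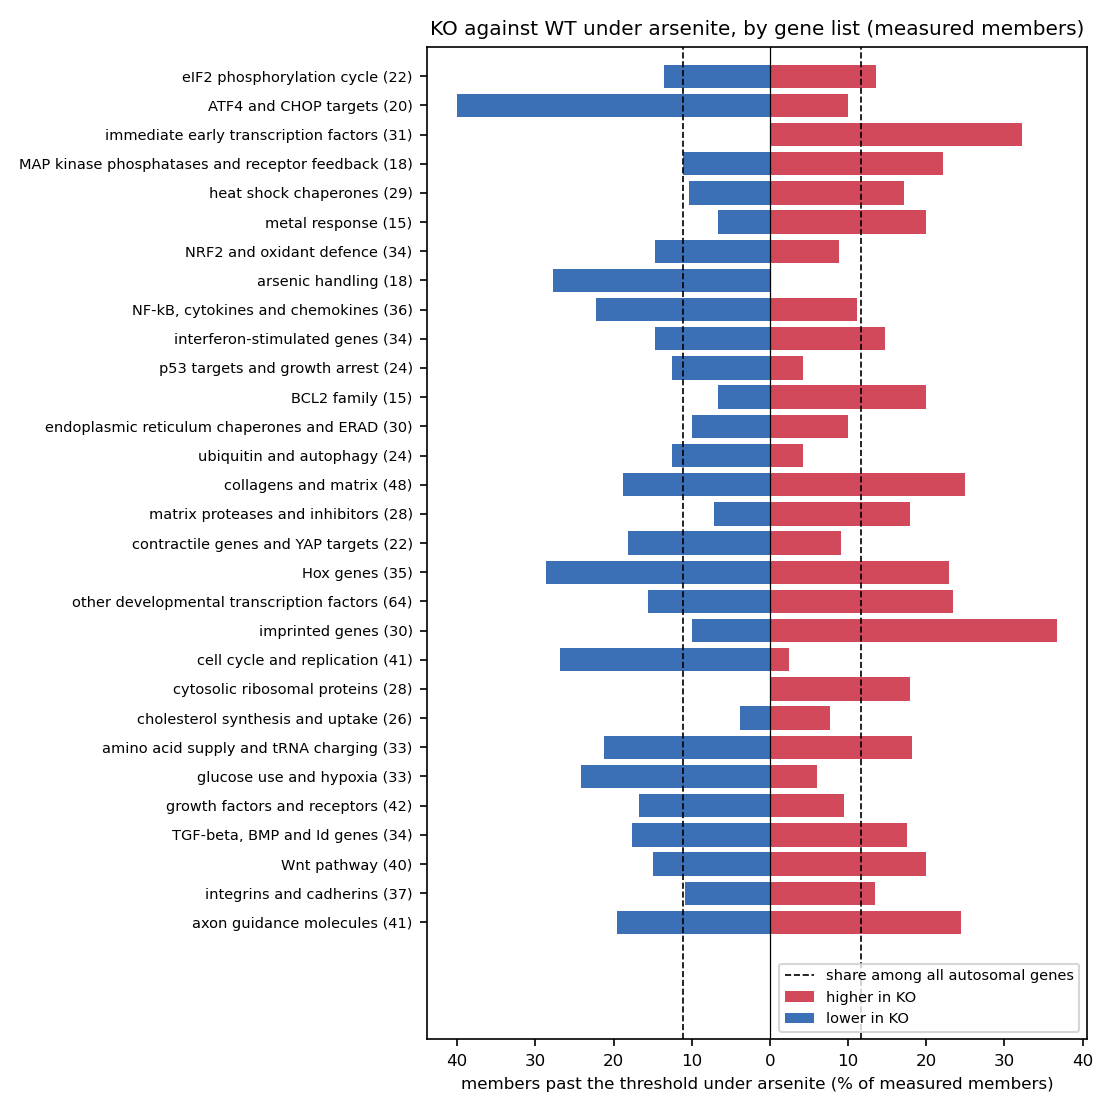
Share of each list's measured members (number in brackets) that passed the test under arsenite, higher in KO to the right and lower to the left, in percent. Dashed lines mark the shares among all autosomal genes, 11.6% and 11.1%. Counts are those without the replicate block. Immediate early and imprinted genes extend farthest to the right, and ATF4 and CHOP targets farthest to the left.

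Markers were checked against the fibroblast label. Of 15 fibroblast markers 13 were above background in at least 1 group, 1 was higher in KO (2 with the block) and 2 lower (1 without KO arsenite replicate 2 or 3 or WT arsenite replicate 1 or 2). Thy1 read 7.05, 6.80 and 6.83 in WT and 5.36, 5.20 and 5.14 in KO, at least 2.92-fold lower (adjusted p = 7.12e-07), and Col3a1 ranged from 8.02 to 12.73 in KO. Of 8 endothelial markers 2 were above background, Kdr (-1.42 ± 0.12 log2) and Eng (0.88 ± 0.12). The 5 pluripotency markers were all at background in both groups. Of 9 leukocyte markers 6 were above background, 1 higher and 1 lower. The higher was Csf1r (0.29 ± 0.09 log2, adjusted p = 0.0394), whose call was lost in 9 of the 12 fits that leave out 1 array, all but those without KO arsenite replicate 3, KO untreated replicate 2 or WT untreated replicate 2 (adjusted p up to 0.126), and in 7 other alternatives. Of 8 epithelial markers 6 were above background, with 1 lower, a call lost without KO arsenite replicate 2 or 3 or WT arsenite replicate 2 or 3. Of 8 muscle markers 4 were, with 0 past the threshold by limma (0 at an unadjusted p under 0.05 and 0 with the block, and 1 lower without WT untreated replicate 2). Of 7 cartilage and bone markers 1 was higher (2 with the block), the cartilage collagen Col2a1, which read 9.24, 8.52 and 8.86 in WT and 11.47, 11.98 and 12.21 in KO, a difference of 3.01 ± 0.30 (adjusted p = 3.73e-05), and 1 was lower without KO arsenite replicate 3. Of 6 adipocyte markers 2 were lower, the lipase Lpl, at least 7.66-fold, and the fat cell factor Pparg (-0.81 ± 0.25, adjusted p = 0.0425), whose call, among fits that leave out 1 array, was kept only without KO arsenite replicate 1 or KO untreated replicates 1 or 2. Of 7 neural and Schwann cell markers 2 were lower, Nes (-0.68 ± 0.10, adjusted p = 0.000785) and Map2 (-1.69 ± 0.55, adjusted p = 0.0486), and among the same fits the call for Map2 was kept only without KO arsenite replicate 3 or KO untreated replicates 2 or 3 (adjusted p up to 0.141 otherwise). The summed level of the fibroblast markers, as a mean per gene, ran from 9.44 to 9.92 in WT and 9.15 to 10.51 in KO, and its part in the results was not tested.

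Differences also followed chromosomes. On chromosome 14, 32% of genes were higher in KO and 3.96% lower, and on chromosome 1, 24% and 3.64%. On chromosome 10, 29.8% were lower and 3.38% higher, and on chromosome 4, 25.4% and 4.26%. Other chromosomes leaned less, such as chromosome 7 with 18.6% higher and 3.95% lower. Among genes above background the chromosome 14 and 10 shares were 44.5% higher and 39% lower, a filter chosen after seeing the data. The median gene above background on chromosome 14 stood 0.35, 0.38 and 0.45 log2 over WT in KO arsenite replicates 1, 2 and 3, and 0.43, 0.44 and 0.49 on the untreated KO arrays. On chromosome 10 the KO arsenite arrays stood at -0.32, -0.26 and -0.32. WT arrays stayed within 0.05 of 0 on both. The part of these chromosome-wide shifts in the results above was not tested.

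**Figure D5:**
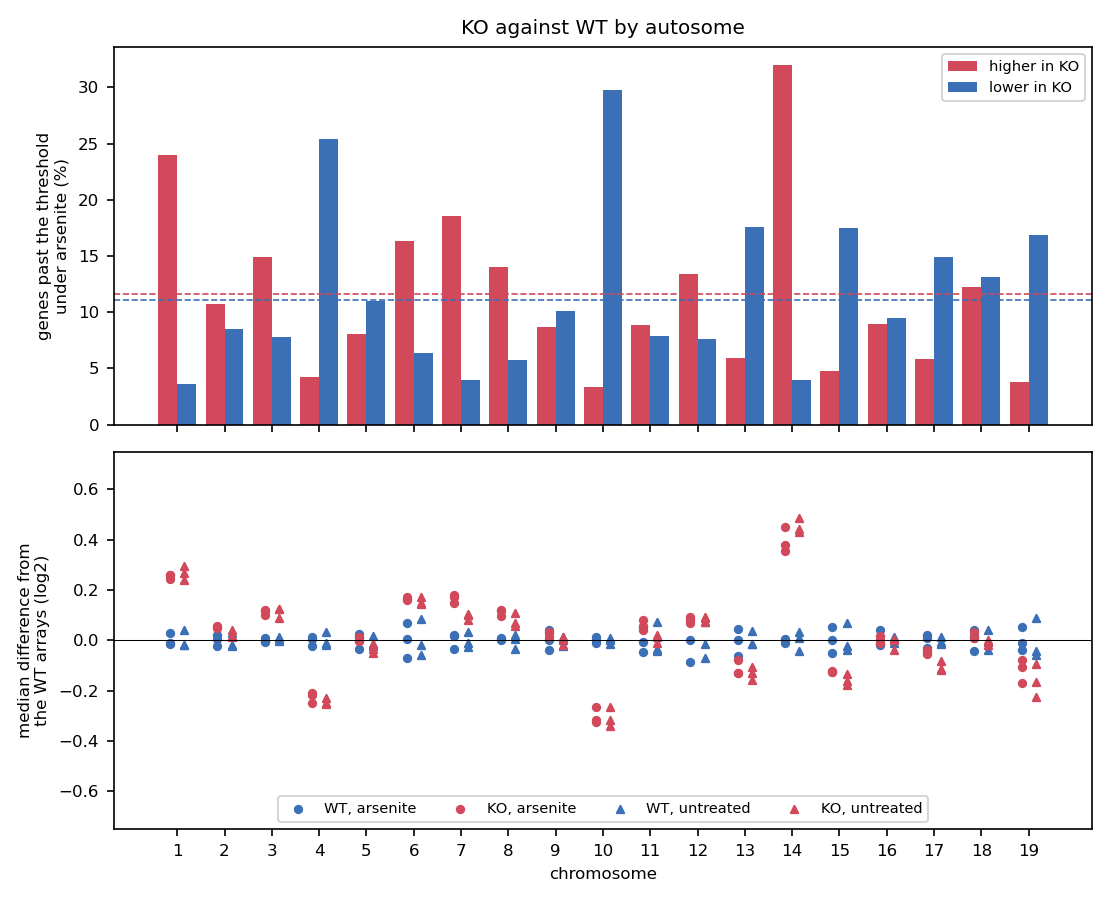
Top, percent of genes on each autosome that passed the test under arsenite, higher (red) or lower (blue) in KO, with the shares of all autosomes dashed. Bottom, median log2 difference of genes above background from the mean of the WT arrays of the same treatment (for a WT array, the other WT arrays), 1 point per array. KO arrays of both treatments lie farthest from WT on chromosomes 1, 4, 10 and 14. They also lie apart from WT, by less, on others such as chromosomes 3, 7, 8, 13 and 15.

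Around the deleted gene on chromosome 7, 3 of 20 neighbouring genes were higher in KO and 2 lower (15% and 10%). These counts lay near the 11.6% and 11.1% of all autosomal genes, and chromosome 7 as a whole had 18.6% higher and 3.95% lower. The higher count was 1 without KO arsenite replicate 1, WT arsenite replicate 1 or 3 or WT untreated replicate 1 or 2, and the lower count 1 without KO arsenite replicate 2 or 3 or any 1 WT arsenite array. Bcat2, a branched-chain aminotransferase, read 5.80, 6.19 and 5.59 in WT and 7.86, 7.76 and 8.10 in KO, a difference of 2.04 ± 0.18 log2 (adjusted p = 1.24e-05). The calcium-binding protein gene Nucb1 read 9.92, 9.86 and 9.85 in WT and 9.42, 8.95 and 9.26 in KO, lower by a difference of -0.66 under arsenite and of -1.78 untreated, and A030001D20Rik was at least 1.57-fold lower, with KO at background. The arsenite call for Nucb1 was lost without KO replicates 2 or 3 or any 1 WT arsenite array. Ruvbl2, at 0.33, did not pass (adjusted p = 0.377) but did with the block (adjusted p = 0.00977).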

How the data were processed

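RNA of immortalised mouse embryonic fibroblasts was hybridised to Affymetrix Mouse430_2 arrays, per the file headers. The authors deposited log2 intensities per probe set from RMA, which corrects background, equalises the arrays' distributions and summarises probes, per the submitters' processing notes, which give no version. Their 4 log2 group mean columns each equalled the mean of the 3 arrays of 1 code (within 1e-06), which tied each code to a labelled group. The authors' 8 comparison columns were not used. Of 45101 probe sets, 38130 had 1 symbol, updated through Entrez identifiers to RefSeq (GRCm38.p6), and the probe set with the highest mean stood for a gene. limma 3.58.1 in R 4.3.3 fitted 4 group means to 12 arrays (8 residual degrees of freedom) over 20753 genes, with Benjamini-Hochberg adjustment over all of them and a threshold of 0.05, and was tested on simulated data.

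The design text names 3 replicate experiments with all 4 conditions, and deviations of same-numbered arrays correlated at 0.231 to 0.738 against -0.575 to -0.0106 for other pairs, so the numbers pair the arrays. Counts, adjusted p and calls are nonetheless those of the fit without this pairing, unless the block is named. A gene said not to pass did not pass in that fit. With the block 5821 genes passed under arsenite against 4045 without it. The replicate block is given where it changes a call or a count by over 1.5 times. Members and the 30 gene lists, 9 marker lists and neighbours were chosen with earlier results of these data known. The largest differences were named among genes past the threshold whose KO and WT arrays under arsenite did not overlap. They were the 8 each way with both means above background and the 6 each way with 1 mean under it. Up to 3 genes that passed and 1 that did not were named per list, beside those said to be added after their values were seen. Some genes that this rule names are not reported here. The number of arrays limits precision.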

Additional observations from a re-analysis of the deposited data

Results flagged for a closer look

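For 7 genes the genotype difference itself changed with arsenite, by the test of the difference between both contrasts (limma, adjusted p under 0.05, n = 3 arrays per group). Without KO arsenite replicate 2 or KO untreated replicate 1, 0 genes passed as larger under arsenite. The same held without WT arsenite replicate 1 or 2, or WT untreated replicate 1 or 3. The calls for Dusp2, Hspa1b, Maff, Dusp1 and Slc2a1 were lost in each of these fits. Ppp1r15a changed by -3.43 ± 0.31 log2 (adjusted p = 0.004), Dusp2 by 2.86 ± 0.34 (adjusted p = 0.0254) and Hspa1b by 2.21 ± 0.26 (adjusted p = 0.0254). Maff changed by 1.64 ± 0.22 (adjusted p = 0.0319), Dusp1 by 1.55 ± 0.19 (adjusted p = 0.0266), C130071C03Rik by -1.47 ± 0.19 (adjusted p = 0.0319) and Slc2a1 by 1.11 ± 0.15 (adjusted p = 0.043). For C130071C03Rik both WT means and the KO mean under arsenite lay under background, so the size of its change is limited by background. With the replicate block Aff4, Chaserr, Egr4, Glce and Psd3 passed as well, named after their values were seen, with changes of -0.93, 1.36, 1.83, -0.86 and -1.10 log2.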

How the results depend on the processing

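Under arsenite, 4045 genes passed; 2411 passed at an adjusted p of 0.01 and 1192 also differed at least 2-fold, and untreated 2310 and 1186 did. With the displaced labels in the shorter deposit, 0 genes passed under arsenite (limma; 131 at an unadjusted p under 0.05). The replicate block gave 5821, and leaving out 1 array gave 3098 to 4185 under arsenite and 2969 to 4101 untreated. For the change with arsenite, 7 genes became 12 with the replicate block, 17 with it as a random block, 4 with the mean over probe sets, 1 at an adjusted p of 0.01, and 1 to 61 with 1 array left out. Of 122 named genes that passed, 93 passed in the same direction in each of the 23 alternatives in which they were measured. Genes with no probe set free of cross-hybridisation were absent from the alternative that kept only such sets. With the block 0 lost the call (limma), and of 43 that had not passed, 34 passed with it. Signs turned for genes that had not passed under arsenite. Leaving out 1 array gave -0.52 to 1.83 for Col3a1 (lowest without KO_arsenite replicate 1), -0.74 to 0.31 for Cldn4 (above 0 without KO_arsenite replicate 3 at 0.075 and WT_arsenite replicate 2), -0.26 to 0.086 for Hspa1b (above 0 without KO_arsenite replicate 3 and WT_arsenite replicate 2, the latter at 0.0069), -0.010 to 0.062 for Maff (below 0 without KO_arsenite replicate 1 and WT_arsenite replicate 2, the latter at -0.0082) and -0.018 to 0.14 for Slc2a1 (below 0 without KO_arsenite replicate 2). Median centring gave -0.034 for Maff and -0.0002 for Slc2a1, and leaving out cross-hybridising probe sets 0.10 for Fabp4. The cause was not tested. Of 81 named genes with several probe sets, 45 had another set under 50% of the difference and 12 one of opposite sign. Differences of genes under 5.35 log2 are limited by background.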
